A study of Mus musculus with 6 samples.

Results

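The fragments described here are the glycine tRNA fragments (tRFs) with the anticodons GCC, TCC and ACC, measured in a mouse model of choroidal neovascularization (CNV). They were chosen by name, as every listed tRF-Gly fragment other than the Gly-CCC ones. This gave 38 of the 498 tRNA-derived small RNAs (tsRNAs) and of the 2334 small RNAs in the tables. They comprised 17 fragments of Gly-GCC, 16 of Gly-TCC and 5 of Gly-ACC, and all were measured in all libraries.

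The CNV group was made by laser: 25 spots were placed around the optic disc of each eye with a 532 nm laser (100 mW, 0.1 s, 50 μm), and the eyes were taken 7 days later. The Control group was age-matched mice that had received no laser. Both groups were male mice of 7 to 8 weeks with no genetic change named in the labels, and the strain was not given there. RNA came from the retinal pigment epithelium (RPE) together with choroid and sclera. There were 3 libraries per group, and 4 eyes were pooled for each, so a library averages over eyes and over lasered and unlasered tissue. Nothing in the labels says that the pools hold eyes of separate mice, and the p-values therefore speak only to the spread among pools, which may be technical.

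Glycine tRNA carries glycine to the ribosome, and the anticodon is the triplet that reads the glycine codon. Enzymes such as angiogenin and Dicer cut mature tRNAs and their precursors into fragments, and the 5′ pieces of glycine tRNA are among the most abundant tRNA fragments in many mammalian tissues, sperm and serum included. Fragments of Gly-GCC have been described as regulators of transcripts driven by an endogenous retroelement in mouse embryonic cells. Fragments cut in the anticodon loop under stress are called tiRNAs. In choroidal neovascularization, new vessels grow from the choroid through Bruch's membrane towards the retina, with inflammation and scarring around them.

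The total count was 5321436 to 5820315 in the CNV libraries and 5057142 to 12839386 in the Control libraries, the highest being Control 2. tsRNAs made up 8.81%, 10.6% and 6.47% of all counts in CNV 1, 2 and 3, against 6.48%, 4.78% and 5.10% in Control 1, 2 and 3, so the groups overlapped through CNV 3 and Control 1. Levels below are CPM, counts per 1000000 of the library total after scaling by trimmed mean of M-values (TMM). No length enters them, because 1 read covers a whole fragment of at most 40 nt. MicroRNA markers of cell types, added up per type, differed between the groups as well. The leukocyte markers summed to 474 to 740 CPM in CNV and 281 to 352 CPM in Control. The RPE markers summed to 4522 to 6499 CPM in CNV and 6768 to 6985 CPM in Control, and the neuron markers to 7173 to 11723 and 12840 to 19959 CPM. Photoreceptor markers summed to 24736 to 49473 CPM in CNV and 49348 to 75779 CPM in Control, overlapping narrowly, and the endothelial, fibroblast, skeletal muscle and red cell sums overlapped too. No marker in any list was at 0 in any library. The part of these differences in the results for the glycine fragments was not tested. In such bulk tissue, fewer cells of a type and less RNA per cell cannot be told apart.

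The glycine fragments differed widely in abundance. Gly-GCC gave 92.8% of the counts of the 38 fragments, Gly-TCC 5.46% and Gly-ACC 1.79%. The mean level over all 6 libraries spanned 1.52 to 2694 CPM among the Gly-GCC fragments, 1.41 to 113 CPM among those of Gly-TCC and 2.93 to 29.8 CPM among those of Gly-ACC. In RefSeq's annotation of the assembly GRCm38.p6, 14 of the 28 glycine tRNA genes are named for GCC, 7 for TCC, 6 for CCC and 1 for ACC. The counts of Gly-GCC, Gly-TCC and Gly-ACC thus ranked in the same order as their genes. Gly-CCC did not follow that order: with fewer genes than Gly-GCC, it gave 7.59 to 13.6 times as many counts in the same library. How reads that match several tRNA genes were counted is not stated, and the part of it in these counts was not tested.

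A single fragment led Gly-GCC and another led Gly-TCC. By mean CPM over the 6 libraries, tRF-Gly-GCC-016 held 56.2% of the Gly-GCC level, followed by tRF-Gly-GCC-015 with 13.8%, tRF-Gly-GCC-017 with 11.3%, tRF-Gly-GCC-009 with 7.08% and tRF-Gly-GCC-018 with 6.05%. tRF-Gly-TCC-025 held 44.2% of Gly-TCC, with tRF-Gly-TCC-022 next at 11.6%. In Gly-ACC no fragment led clearly: tRF-Gly-ACC-003 held 34.8%, tRF-Gly-ACC-007 34.6% and tRF-Gly-ACC-002 23.7%. At the other end, 14 of the 38 fragments averaged under 10 CPM, among them 8 of Gly-TCC, and there counting error alone was large. A count of 1, the lowest in the set, was that of tRF-Gly-TCC-010 in CNV 3.

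**Figure D1:**
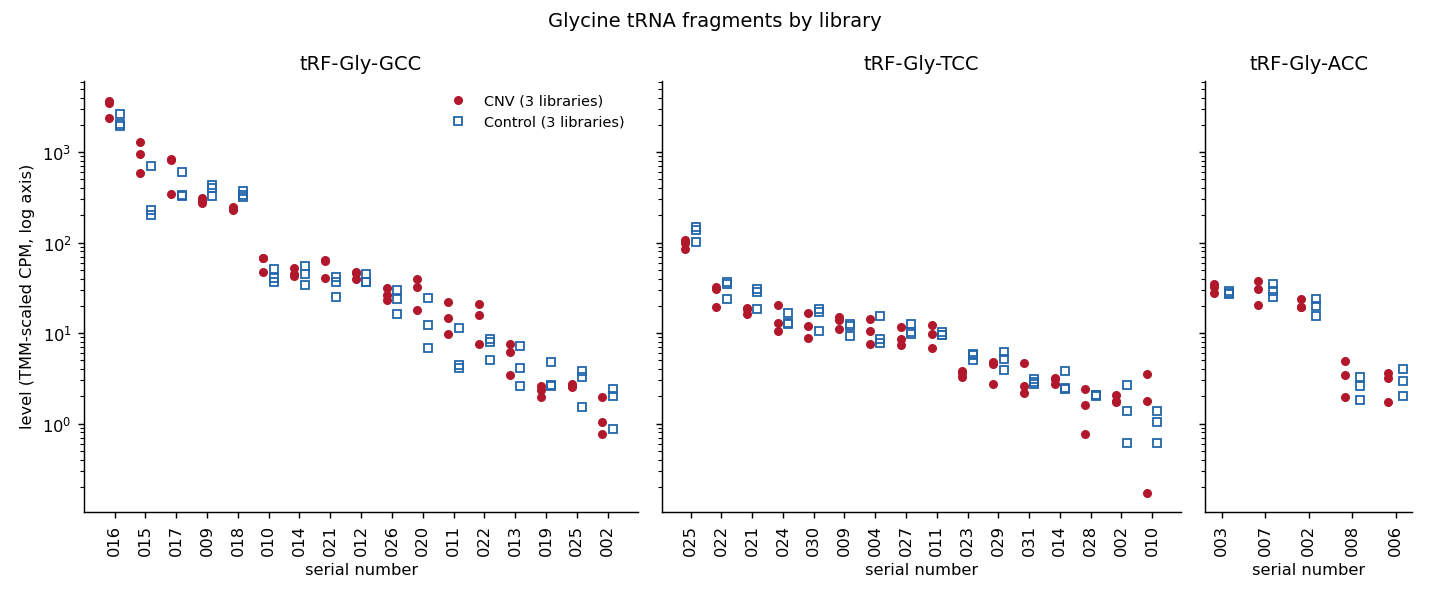
Level of each of the 38 glycine tRNA fragments in each library, as TMM-scaled CPM on a log axis, with filled circles for the 3 CNV libraries left of open squares for the 3 Control libraries and fragments ordered by mean level within an anticodon. The points show tRF-Gly-GCC-018 lower in every CNV library than in every Control library (226 to 245 CPM against 321 to 374 CPM), while tRF-Gly-GCC-015 and tRF-Gly-GCC-016 overlap through CNV 3 and Control 1.

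In edgeR's quasi-likelihood fit, with p adjusted over 997 small RNAs by the Benjamini-Hochberg method, 0 of the 36 glycine fragments with enough reads passed an adjusted p of 0.05, and 0.301% of all small RNAs tested did. The other 2 fragments, tRF-Gly-TCC-002 and tRF-Gly-TCC-010, had too few reads. The smallest adjusted p was 0.141, of tRF-Gly-GCC-018. At an unadjusted p under 0.05, 7 fragments were higher and 4 lower in CNV, which is 19.4% and 11.1% of the 36, beside 10.8% and 6.92% of all small RNAs. That balance depended on the scaling: 3 were higher and 5 lower with library totals alone, and 5 were higher and 5 lower with relative log expression factors or with tsRNAs fitted alone. It also depended on single libraries, with 0 higher and 1 lower without CNV 1, and 0 higher and 2 lower without Control 2. DESeq2 called 1 fragment, tRF-Gly-GCC-018, in a fit of 997 small RNAs that called 40. The limma-voom fit called 0 of the glycine fragments and 3 of the 997 small RNAs. No fragment was higher in all CNV libraries than in all Control libraries, against 11.4% of all small RNAs, and 4 were lower in all of them, which is 11.1% beside 8.93% of all. The median log2 fold change of the 36 was 0.06, close to the 0.05 over all small RNAs and the 0.08 over all tsRNAs.

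Medians and directions are given for each anticodon, whose sets differ in size. Of the 17 Gly-GCC fragments, 12 had a positive log2 fold change (CNV over Control), 7 of these at an unadjusted p under 0.05, and the median was 0.35. Of the 14 Gly-TCC fragments tested, 10 had a negative one, 2 of these at an unadjusted p under 0.05, and the median was −0.23. Of the 5 Gly-ACC fragments, 3 were positive and 2 negative with a median of 0.07, and none had an unadjusted p under 0.05. For comparison, 534 of the 997 small RNAs tested and 257 of the 456 tsRNAs had a positive log2 fold change. At an unadjusted p under 0.05, 41.2% of the Gly-GCC fragments were higher and 11.8% lower. The shares were 0% and 14.3% for Gly-TCC, and 10.8% and 6.92% for all small RNAs. Under scaling by library totals alone the median over all small RNAs moved from 0.05 to −0.11, and the positive fragments then numbered 11 for Gly-GCC, 1 for Gly-TCC and 2 for Gly-ACC.

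**Figure D2:**
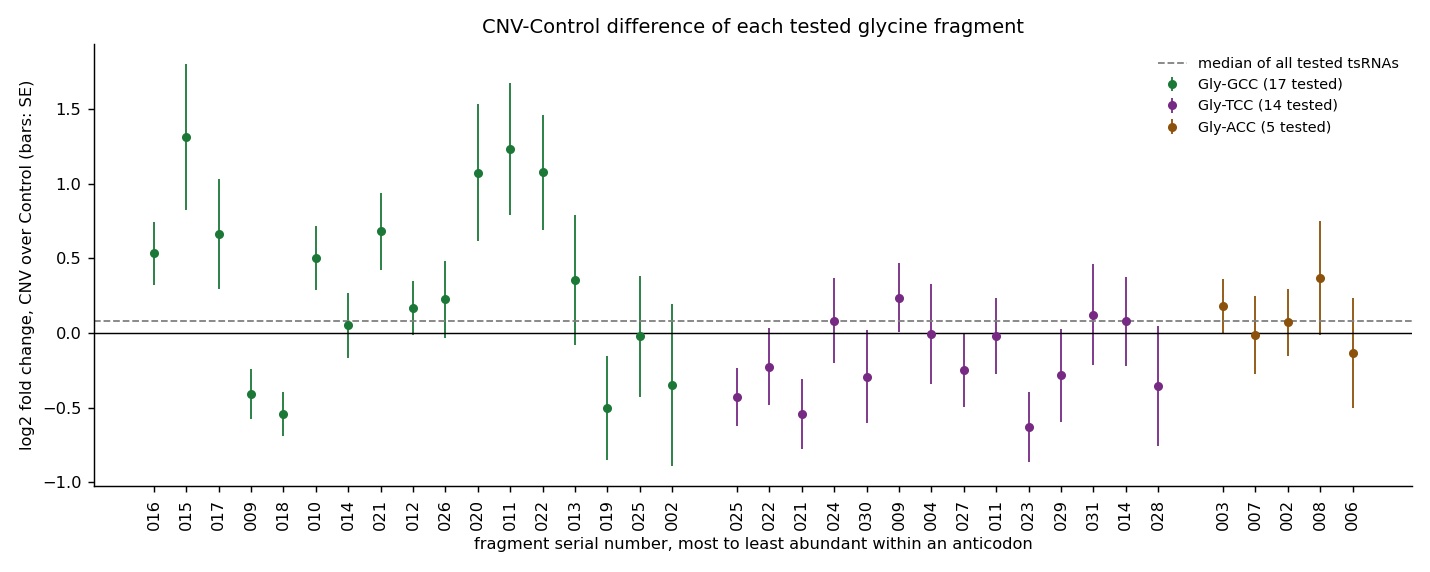
Log2 fold change, CNV over Control, of the 36 tested glycine fragments, grouped by anticodon, with bars of 1 standard error either side from edgeR, a solid line at 0 and a dashed line at the median of all tested tsRNAs. The 17 Gly-GCC fragments span −0.54 to 1.31, those of Gly-TCC −0.63 to 0.24 and those of Gly-ACC −0.14 to 0.37.

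The leading fragment of the set was tRF-Gly-GCC-016. It had 3469, 3696 and 2394 CPM in CNV 1, 2 and 3, against 2655, 2028 and 1924 CPM in Control 1, 2 and 3. CNV 1 and CNV 2 were above every Control library, while CNV 3 lay below Control 1. It averaged 3186 ± 696 CPM in CNV and 2202 ± 395 CPM in Control (SD, n = 3 each). The fold change was 1.45 (log2 0.53, SE 0.21) with an adjusted p of 0.242 in edgeR.

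The largest positive log2 fold change in the set was that of tRF-Gly-GCC-015. Its level was 1288, 953 and 582 CPM in CNV 1, 2 and 3 and 709, 228 and 201 CPM in Control 1, 2 and 3. Control 1 was well above the other controls and above CNV 3, and the CNV libraries also spread widely. The means were 941 ± 354 CPM in CNV and 380 ± 286 CPM in Control (SD, n = 3 each). The log2 fold change of tRF-Gly-GCC-015 was 1.31 (SE 0.49), with an adjusted p of 0.232 in edgeR. Without Control 1 it was 2.13, with an adjusted p of 0.0404 in edgeR, while without Control 2 it was 0.92, with an adjusted p of 0.528. Over the fits that left out any library other than Control 1, the adjusted p was 0.165 to 0.594.

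Next in abundance was tRF-Gly-GCC-017. It had 832, 822 and 341 CPM in CNV 1, 2 and 3, against 605, 323 and 331 CPM in Control 1, 2 and 3. CNV 3 sat among the Control libraries, and Control 1 sat between CNV 3 and the other CNV libraries. The log2 fold change was 0.66 (SE 0.37), with an adjusted p of 0.402 in edgeR.

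Against these stood tRF-Gly-GCC-018 and tRF-Gly-GCC-009, the lower pair among the abundant Gly-GCC fragments. tRF-Gly-GCC-018 had 245, 237 and 226 CPM in CNV 1, 2 and 3, against 336, 321 and 374 CPM in Control 1, 2 and 3. The groups did not overlap, and the spread within them was narrow, with means of 236 ± 9.11 CPM in CNV and 344 ± 27.1 CPM in Control (SD, n = 3 each). Its log2 fold change was −0.54 (SE 0.15), with an unadjusted p of 0.00518 and an adjusted p of 0.141 in edgeR. In DESeq2, which called 40 small RNAs, the adjusted p of tRF-Gly-GCC-018 was 0.0148 at a log2 fold change of −0.58.

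The level of tRF-Gly-GCC-009 was 291, 314 and 271 CPM in CNV 1, 2 and 3 and 323, 433 and 404 CPM in Control 1, 2 and 3. Again every CNV library lay below every Control library, though CNV 2 and Control 1 were close. Its log2 fold change was −0.41 (SE 0.17), with an adjusted p of 0.257 in edgeR.

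Among scarcer Gly-GCC fragments, tRF-Gly-GCC-011 had 21.8, 14.7 and 9.80 CPM in CNV 1, 2 and 3, against 11.4, 4.17 and 4.49 CPM in Control 1, 2 and 3. tRF-Gly-GCC-022 had 16.0, 21.1 and 7.57 CPM in CNV 1, 2 and 3, against 7.94, 5.03 and 8.58 CPM in Control 1, 2 and 3. For both, CNV 1 and CNV 2 were above all controls and CNV 3 was not. The log2 fold changes were 1.23 (SE 0.44) for tRF-Gly-GCC-011 and 1.07 (SE 0.39) for tRF-Gly-GCC-022, each with an adjusted p of 0.219 in edgeR.

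The same ordering of libraries ran through the higher Gly-GCC fragments. In all 7 with an unadjusted p under 0.05, which include tRF-Gly-GCC-010, tRF-Gly-GCC-020 and tRF-Gly-GCC-021 (named after their values were seen), CNV 1 and CNV 2 exceeded every Control library and CNV 3 was below Control 1. Control 1 was the highest control in 6 of the 7. These 7 were picked for being higher in CNV, so their ordering is in part set by that choice. Counted over all fragments, CNV 1 and CNV 2 exceeded every Control library in 9 of 17 of Gly-GCC, 2 of 16 of Gly-TCC and 0 of 5 of Gly-ACC. CNV 3 was below Control 1 in 17 of 17 of Gly-GCC, 12 of 16 of Gly-TCC and 1 of 5 of Gly-ACC. The share over all small RNAs was not computed for either pattern, so these counts cannot show that the ordering is particular to Gly-GCC. CNV 3 was also the CNV library with the lowest sum of leukocyte markers, 474 CPM against 740 and 700 CPM in CNV 1 and 2, of red cell markers, 949 CPM against 4130 and 3206 CPM, and of fibroblast and smooth muscle markers, 69086 CPM against 90303 and 90168 CPM. Its photoreceptor and neuron sums were the highest of the CNV libraries, at 49473 and 11723 CPM, and its tsRNA share the lowest. Its RPE sum, 4522 CPM, was the lowest of the CNV libraries and so the farthest from the 6768 to 6985 CPM of Control. Its skeletal muscle sum was also the lowest of the CNV libraries, at 57437 CPM, and its endothelial sum the highest, at 42881 CPM. Control 1 stood apart as well, with a skeletal muscle sum of 34304 CPM against 80898 and 91114 CPM in Control 2 and 3. Its endothelial sum, 35246 CPM, was the lowest of the Control libraries. Its photoreceptor, neuron and RPE sums were the highest of them, at 75779, 19959 and 6985 CPM. The leukocyte, red cell and fibroblast sums of Control 1 lay between those of Control 2 and 3. The part of any of these in the ordering was not tested. Leaving out 1 library moved the number of fragments at an unadjusted p under 0.05, 11 with all libraries: it was 1 without CNV 1, 5 without CNV 2, 2 without Control 2 and 3 without Control 3, and 12 without CNV 3 or without Control 1.

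Gly-TCC ran mostly below Control. Its leading fragment, tRF-Gly-TCC-025, had 98.6, 107 and 84.1 CPM in CNV 1, 2 and 3, against 102, 149 and 138 CPM in Control 1, 2 and 3. CNV 2 exceeded Control 1, and the other controls were above every CNV library. The log2 fold change was −0.43 (SE 0.19), with an unadjusted p of 0.0549 and an adjusted p of 0.287 in edgeR.

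tRF-Gly-TCC-021 had 16.3, 18.3 and 18.7 CPM in CNV 1, 2 and 3, against 18.6, 28.5 and 30.6 CPM in Control 1, 2 and 3. CNV 3 and Control 1 were nearly level, and that pair alone kept the groups from separating. The log2 fold change of tRF-Gly-TCC-021 was −0.54 (SE 0.23), with an adjusted p of 0.277 in edgeR.

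The other abundant Gly-TCC fragments differed less than their spread. tRF-Gly-TCC-022 had 30.5, 32.0 and 19.6 CPM in CNV 1, 2 and 3 and 23.8, 37.0 and 34.9 CPM in Control 1, 2 and 3 (log2 fold change −0.22, SE 0.26). tRF-Gly-TCC-024 had 13.0, 20.7 and 10.7 CPM in CNV 1, 2 and 3 and 12.6, 12.9 and 16.5 CPM in Control 1, 2 and 3 (log2 fold change 0.08, SE 0.28). In both, CNV 3 was below every Control library and the other CNV libraries were not. The only Gly-TCC fragment whose groups did not overlap was tRF-Gly-TCC-023, named after its values were seen. It had 3.31, 3.58 and 3.78 CPM in CNV 1, 2 and 3, against 5.87, 5.10 and 5.72 CPM in Control 1, 2 and 3, from 17 to 71 reads per library. Its log2 fold change was −0.63 (SE 0.23), with an adjusted p of 0.232 in edgeR.

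No Gly-ACC fragment separated the groups. tRF-Gly-ACC-003 had 34.6, 27.9 and 32.7 CPM in CNV 1, 2 and 3, against 29.5, 27.5 and 27.0 CPM in Control 1, 2 and 3. Only CNV 2 lay inside the Control range, and the log2 fold change was 0.18 (SE 0.18), with an adjusted p of 0.670 in edgeR. tRF-Gly-ACC-007 had 20.2, 30.7 and 37.8 CPM in CNV 1, 2 and 3, against 24.8, 35.2 and 29.4 CPM in Control 1, 2 and 3. Here CNV held both the lowest and the highest library, at a log2 fold change of −0.01 (SE 0.26).

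tRF-Gly-ACC-002 had 23.7, 19.5 and 19.4 CPM in CNV 1, 2 and 3 and 23.8, 20.1 and 15.5 CPM in Control 1, 2 and 3. Its log2 fold change was 0.07 (SE 0.22), and the groups overlapped almost fully. tRF-Gly-ACC-008 had 1.95, 4.98 and 3.44 CPM in CNV 1, 2 and 3 and 2.59, 3.24 and 1.84 CPM in Control 1, 2 and 3 (log2 fold change 0.37, SE 0.38). It rested on 9 to 45 reads per library, and without CNV 2 the log2 fold change of tRF-Gly-ACC-008 was −0.0071.

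Added up per anticodon, Gly-GCC had 6467, 6359 and 4055 CPM in CNV 1, 2 and 3, against 4913, 3518 and 3444 CPM in Control 1, 2 and 3. Only CNV 3 lay within the Control range. The sum averaged 5627 ± 1362 CPM in CNV and 3958 ± 827 CPM in Control (SD, n = 3 each), a log2 difference of 0.50 with a two-sided exact permutation p of 0.2. The 17 fragments made up 6.48%, 5.66% and 6.44% of all tsRNA counts in CNV 1, 2 and 3, against 8.41%, 7.97% and 6.54% in Control 1, 2 and 3. As a share of tsRNAs, then, Gly-GCC was lower in every CNV library, and as a share of all small RNAs it was higher on average.

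Gly-TCC summed to 230, 251 and 212 CPM in CNV 1, 2 and 3, against 240, 306 and 296 CPM in Control 1, 2 and 3. Control 1 lay between CNV 1 and CNV 2, and the log2 difference was −0.28 with an exact permutation p of 0.2. As a share of all tsRNA counts Gly-TCC was 0.231%, 0.224% and 0.337% in CNV 1, 2 and 3, against 0.411%, 0.694% and 0.561% in Control 1, 2 and 3. On that scale the groups did not overlap, and the log2 difference was −1.07 with an exact permutation p of 0.1. Most of that denominator, used for Gly-GCC above as well, was Gly-CCC: 70.9 to 77.0% in CNV and 60.5 to 67.1% in Control. The larger difference therefore goes with the choice of denominator. Gly-ACC summed to 82.3, 86.2 and 97.0 CPM in CNV 1, 2 and 3, against 83.7, 90.0 and 75.8 CPM in Control 1, 2 and 3. Its log2 difference was 0.09, with an exact permutation p of 0.5, and it turned negative under scaling by library totals (−0.06). For comparison, the log2 difference of the Gly-CCC sum was 1.00, with an exact permutation p of 0.1, the smallest that 3 against 3 libraries allow. Adjusted over the 4 sums, p was 0.267 for Gly-GCC, Gly-TCC and Gly-CCC and 0.5 for Gly-ACC.

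**Figure D3:**
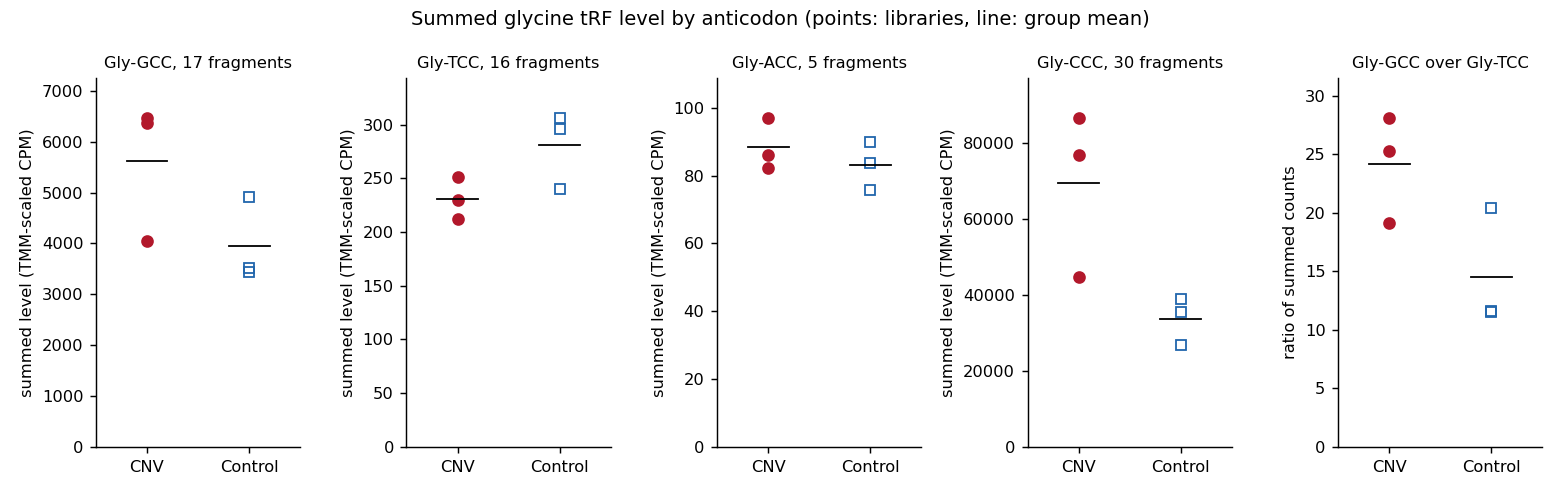
Summed TMM-scaled CPM of all fragments of each glycine anticodon in each library, and in the last panel the ratio of the Gly-GCC to the Gly-TCC counts, with CNV left of Control, points for libraries and a line for the mean of each 3. Gly-GCC averages 5627 CPM in CNV and 3958 CPM in Control, Gly-TCC 231 and 281 CPM, and Gly-ACC 88.5 and 83.1 CPM.

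The ratio of 2 anticodons within a library does not depend on any scaling, and its difference between the groups measures how far the anticodons moved apart. Gly-GCC exceeded Gly-TCC 28.1, 25.3 and 19.1 times in CNV 1, 2 and 3, against 20.5, 11.5 and 11.7 times in Control 1, 2 and 3. CNV 3 was below Control 1, so the groups overlapped. On the log2 scale the ratio was 0.77 higher in CNV (4.58 ± 0.29 in CNV and 3.81 ± 0.48 in Control, SD, n = 3 each), with an exact permutation p of 0.2.

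Against Gly-ACC, the ratio of Gly-GCC was 78.6, 73.8 and 41.8 in CNV 1, 2 and 3 and 58.7, 39.1 and 45.5 in Control 1, 2 and 3 (log2 difference 0.41, exact permutation p = 0.3). Gly-TCC over Gly-ACC was 2.79, 2.91 and 2.19 in CNV 1, 2 and 3 and 2.87, 3.40 and 3.90 in Control 1, 2 and 3 (log2 difference −0.37, exact permutation p = 0.2). Both pairs overlapped, the first through CNV 3 and the second through Control 1.

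Set against Gly-CCC, the anticodon left out of the set, Gly-GCC and Gly-TCC were lower in every CNV library than in every Control library. Gly-GCC over Gly-CCC was 0.0844, 0.0735 and 0.0908 in CNV 1, 2 and 3, against 0.126, 0.132 and 0.0974 in Control 1, 2 and 3 (log2 difference −0.51). Gly-TCC over Gly-CCC was 0.00300, 0.00290 and 0.00475 in CNV 1, 2 and 3, against 0.00618, 0.0115 and 0.00836 in Control 1, 2 and 3 (log2 difference −1.28). Each had an exact permutation p of 0.1, the smallest possible here. For Gly-GCC over Gly-CCC this depended on the fragments used. The exact permutation p was 0.1 without the most abundant fragment of each and 0.2 with the median over members (log2 difference −0.25). It was 0.3 without tRF-Gly-GCC-009 and tRF-Gly-GCC-018 (−0.35), an alternative chosen after seeing the data. The ratio of Gly-ACC to Gly-CCC overlapped, with a log2 difference of −0.91 and an exact permutation p of 0.3. After adjustment over the 6 pairs, the exact permutation p was 0.3 for all of them, and no pair of anticodons was shown to differ. With no p under 0.1 possible, the test could not decide whether any pair did.

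Within Gly-GCC, 15 of the 17 fragments had a share of the Gly-GCC counts that overlapped between the groups, and no test was made on the shares. tRF-Gly-GCC-016 held 53.6%, 58.1% and 59.0% of the Gly-GCC counts in CNV 1, 2 and 3, against 54.0%, 57.7% and 55.9% in Control 1, 2 and 3. tRF-Gly-GCC-018 held 3.78%, 3.73% and 5.58% in CNV 1, 2 and 3, against 6.83%, 9.13% and 10.8% in Control 1, 2 and 3. tRF-Gly-GCC-015 held 19.9%, 15% and 14.3% in CNV 1, 2 and 3, against 14.4%, 6.49% and 5.83% in Control 1, 2 and 3. The share of tRF-Gly-GCC-018 did not overlap between the groups, whereas that of tRF-Gly-GCC-015 did by a narrow margin through Control 1. The share of tRF-Gly-GCC-009 was 4.51%, 4.93% and 6.68% in CNV 1, 2 and 3 and 6.57%, 12.3% and 11.7% in Control 1, 2 and 3, again crossing at CNV 3 and Control 1.

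The same fragments were also set against each other as ratios within a library. tRF-Gly-GCC-016 exceeded tRF-Gly-GCC-018 14.2, 15.6 and 10.6 times in CNV 1, 2 and 3, against 7.91, 6.31 and 5.15 times in Control 1, 2 and 3. tRF-Gly-GCC-015 over tRF-Gly-GCC-018 was 5.27, 4.02 and 2.57 in CNV 1, 2 and 3, against 2.11, 0.711 and 0.538 in Control 1, 2 and 3. Neither ratio overlapped between the groups, and CNV 3 and Control 1 were the closest libraries in both. The ratio of tRF-Gly-GCC-009 to tRF-Gly-GCC-018 was 1.19, 1.32 and 1.20 in CNV 1, 2 and 3 and 0.962, 1.35 and 1.08 in Control 1, 2 and 3, so these fragments kept nearly the same proportion. These fragments were compared after their levels were known, and no test was made on the ratios.

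**Figure D4:**
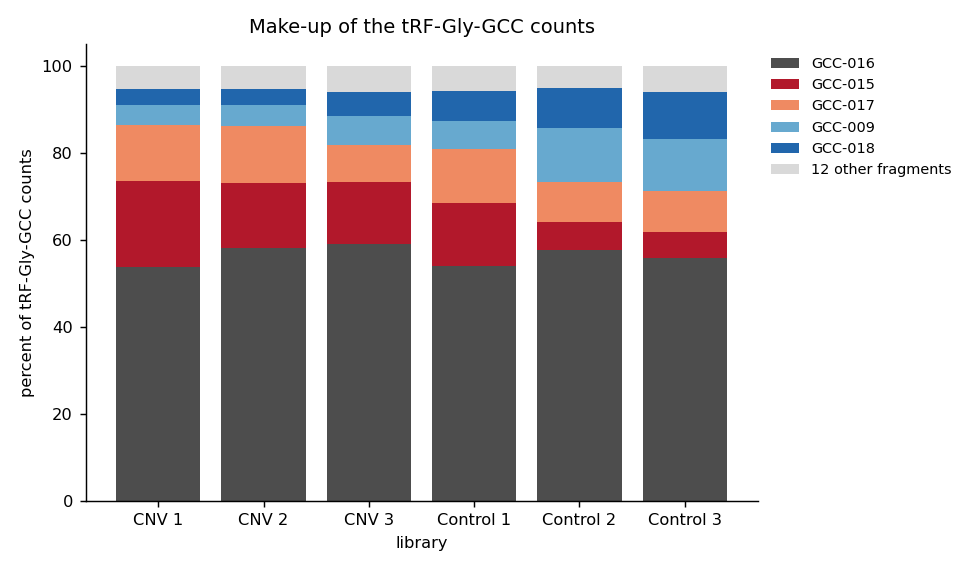
Stacked share of the Gly-GCC counts held by the 5 most abundant fragments and by the rest in each library, in percent, CNV left of Control. tRF-Gly-GCC-016, at the bottom, holds 53.6 to 59.0% in CNV and 54.0 to 57.7% in Control, tRF-Gly-GCC-018 holds 3.73 to 5.58% in CNV and 6.83 to 10.8% in Control, and tRF-Gly-GCC-015 holds 14.3 to 19.9% in CNV and 5.83 to 14.4% in Control.

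Of all 38 fragments, 3 had a share of their own anticodon's counts that did not overlap between the groups. This is 7.89%, below the 19.1% of the 456 tRFs whose anticodon had at least 2 listed tRFs. Besides tRF-Gly-GCC-018 these were tRF-Gly-GCC-019, lower in CNV and counted in only 10 to 36 reads per library, and tRF-Gly-TCC-009, higher in CNV at 6.51%, 5.63% and 5.27% in CNV 1, 2 and 3 against 5.03%, 4.13% and 3.11% in Control 1, 2 and 3. Both were named after their values were seen. In Gly-TCC the leading fragment held 42.9%, 42.6% and 39.6% in CNV 1, 2 and 3, against 42.5%, 48.7% and 46.8% in Control 1, 2 and 3, so the groups overlapped.

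The counts of Gly-GCC had a regularity of their own. In 8 of the 17 Gly-GCC fragments (47.1%) the count was even in all 6 libraries, against 1 of 16 for Gly-TCC, 0 of 5 for Gly-ACC, 2 of 30 for Gly-CCC and 28 of the 460 tsRNAs outside the set (6.09%). The 8 included tRF-Gly-GCC-017, with 4278, 4132 and 1982 reads in CNV 1, 2 and 3 and 3506, 4496 and 1622 reads in Control 1, 2 and 3. The fragments tRF-Gly-GCC-010, tRF-Gly-GCC-020 and tRF-Gly-GCC-022, which were among the 7 with higher levels, had it too. How reads that match several tRNA genes were counted is not stated in the sources used here, and the cause of the even counts was not tested. When such counts were divided by 2, 34 glycine fragments had enough reads and 0 passed the adjusted p in edgeR, with 10 at an unadjusted p under 0.05.

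The tiRNAs of glycine were listed apart from the tRFs and were named for GCC, TCC and CCC, with none for ACC. Of the 8 tiRNA-Gly fragments, 7 had a positive log2 fold change with a median of 0.37, and none had an unadjusted p under 0.05. tRFs of Gly-GCC exceeded the Gly-GCC tiRNAs 5.02, 4.32 and 5.94 times in CNV 1, 2 and 3, against 4.48, 3.27 and 4.44 times in Control 1, 2 and 3. For Gly-TCC the ratio was 16.0, 11.4 and 26.3 in CNV 1, 2 and 3, against 25.8, 26.5 and 27.9 in Control 1, 2 and 3. CNV 2 lay among the controls for Gly-GCC, and CNV 3 was above Control 1 for Gly-TCC, so both overlapped. The Gly-TCC tiRNAs were scarce, at 7.05 to 17.5 CPM for tiRNA-Gly-TCC-002 and 0.817 to 5.25 CPM for tiRNA-Gly-TCC-003 over all libraries. Among the 29 Gly-CCC fragments tested, 12 were higher and 0 lower in CNV at an unadjusted p under 0.05, and in the 356 tRFs of other amino acids 34 were higher and 14 lower. By that count 41.2% of the Gly-GCC fragments were higher and 11.8% lower, beside 41.4% and 0% of the Gly-CCC fragments and 9.55% and 3.93% of the tRFs of other amino acids. The higher count of the GCC, TCC and ACC fragments together, 7 here, was 3 with library totals alone and 0 without CNV 1 or Control 2. Fragments of a tRNA may share sequence and are not independent of each other, so these shares are descriptions.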

How the data were processed

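Small RNA libraries were made from total RNA with inserts of 14 to 40 nt and sequenced on an Illumina instrument, per the labels' protocols. The authors' deposited tables give a read count per mature miRNA and per tsRNA for each library. Per the submitters' processing notes Bowtie was used. Not given in the sources used here are its version, the genome build and how reads that match several tRNA genes were counted. The deposited CPM column, an authors' value on totals that differ for miRNAs and tsRNAs, was not tested. Every fragment reached at least 20.0 in it in some library. The sequences behind the fragment names were not used here.

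Counts were analysed in R 4.3.3 with edgeR 4.0.16. Small RNAs were kept by filterByExpr (minimum count 10, minimum total 15), which left 541 miRNAs and 456 tsRNAs, scaled together by TMM and fitted without covariates. CNV was tested against Control by the quasi-likelihood test with Benjamini-Hochberg adjustment over all 997. Standard errors were computed from the log2 fold change and its F statistic. Sums and ratios of anticodons were compared by two-sided exact permutation tests, which cannot go below 0.1 with 3 against 3 libraries. The fit was tested on simulated data, where a minimum recovery was required only for changes larger than these fragments showed with all libraries. DESeq2 1.42.0 and limma 3.58.1 were run as alternatives, with other scalings, filters and left-out libraries. Values are given in every library for the 4 most abundant fragments of each anticodon and the 3 with the smallest p. The fragments and lists were chosen with earlier results of these data known. RefSeq's GRCm38.p6 annotation was used only for names and numbers of tRNA genes. No sequencing batch is given in the labels.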

Additional observations from a re-analysis of the deposited data

How the results depend on the processing

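The count of glycine fragments past an adjusted p of 0.05, 0 in edgeR, was 4 with no filter on low counts (tRF-Gly-GCC-011, 015, 020 and 022, in a fit that called 88 small RNAs), 1 in DESeq2, which called 40 small RNAs, and 0 to 1 with 1 library left out. With a replicate block it was 2, tRF-Gly-GCC-011 (log2 fold change 1.30, adjusted p 0.0361) and tRF-Gly-GCC-015 (1.49, 0.0237), in a fit that called 36 small RNAs. The labels do not tie equal replicate numbers together. The deviations of same-numbered libraries correlated at 0.287, 0.0302 and 0.172 for numbers 1, 2 and 3. Those of differently numbered libraries correlated at −0.257 to 0.152, below the values for numbers 1 and 3. Whether same-numbered pools belong together was not tested. At an unadjusted p under 0.05 in edgeR there were 11 of 36 fragments, and 7 of 17 where a mean of at least 20 CPM was required. With 1 library left out there were 1 to 12, of 36 or 37 tested. A tsRNA total was worked out from the deposited counts and CPM, and what it counts is not stated. The summed level of Gly-GCC, 0.50 on the log2 scale, was −0.30 as a share of tsRNA counts and 0.096 by that total. The summed level of Gly-TCC, −0.28, was −1.07 and −0.68. Among tsRNAs, Gly-CCC held 70.9 to 77.0% in CNV and 60.5 to 67.1% in Control. The sum of Gly-ACC, 0.09, was −0.057 by library totals, −0.70 as a share of tsRNA counts and −0.31 by the worked-out tsRNA total. That total was an alternative chosen after seeing the data, as was the division of even counts. Log2 fold changes near 0 turned sign: tRF-Gly-ACC-002 was −0.093 by library totals, −0.0094 with tsRNAs alone, −0.017 with no filter and −0.12 to 0.23 with 1 library left out, and tRF-Gly-TCC-024 was −0.064 by library totals, −0.017 with tsRNAs alone and −0.29 to 0.20 with 1 library left out. Likewise tRF-Gly-ACC-007 ranged over −0.31 to 0.19 and tRF-Gly-ACC-008 over −0.0071 to 0.64. No other named fragment, Gly-TCC sum or anticodon ratio changed direction under an alternative run for it. The causes were not tested. Fragments under 10 CPM rest on few reads, and 3 pools a group limit every value.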
